A study of Mus musculus with 9 samples.

Results

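The genes described here are 10 members of the bone morphogenetic protein (BMP) pathway in mouse embryonic stem cells (mESC), taken by symbol from a table of 29069 genes. They are the ligands *Bmp2*, *Bmp4* and *Bmp7*, the *Id* genes *Id1*, *Id2*, *Id3* and *Id4*, the receptor-regulated Smad gene *Smad9*, the inhibitory Smad gene *Smad6*, and *Bambi*, a decoy receptor gene. All 10 were found, and 9 had a mean above 5 normalised counts and were tested. *Bmp2* lay under that minimum. BMP ligands bind paired serine/threonine kinase receptors, which phosphorylate Smad1, Smad5 and Smad9. These join Smad4, enter the nucleus and act on target genes, among which the *Id* genes are the best known. Id proteins have a helix-loop-helix domain but cannot bind DNA, and they hold E proteins in inactive pairs. In mESC, BMP signalling through Id proteins is known as one of the inputs that sustain self-renewal beside leukemia inhibitory factor (LIF). Smad6 and Bambi are feedback inhibitors of the pathway.

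Total RNA was sequenced from mES-D3 cells, a mouse embryonic stem cell line adapted here to growth without feeder cells and used between passages 5 and 8. There were 9 samples, 3 in each of 3 media held for 24 h. The ground state medium (GS) was serum-free N2B27 with the MEK inhibitor PD0325901 (1 μM), the GSK3 inhibitor CHIR99021 (3 μM) and LIF (20 ng/mL). The differentiation medium (DM) was DMEM with 10% fetal bovine serum and without inhibitors or LIF. The third condition (NO) was DM with 250 μM DETA/NO, a donor that releases nitric oxide. GS and DM differed in basal medium, serum, both inhibitors and LIF at once, so the comparison of DM with GS cannot tell these apart, whereas NO and DM differed by the donor. All samples came from 1 line, and the sources used here do not say whether the 3 replicates were separate cultures, so p-values measure the spread between these samples, which may be technical.

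Depth was estimated at 14312996 to 27080407 assigned reads per sample, and 1 read was worth 0.70 to 1.32 normalised counts. All 10 mESC markers were present in every medium, with a sum of 125568 to 127669 normalised counts in the GS samples, 105589 to 115841 in DM and 65805 to 106689 in NO. In DM the lower sum came with *Tfcp2l1* (30213 to 31982 in GS, 9340 to 12742 in DM) and *Nanog* (12184 to 15465, 7596 to 8190). Of the 10 markers, 6 had a positive log2 fold change in DM against GS. NO replicate 2 stood apart. It had the lowest mESC marker sum, and on the first principal component (50.3% of the variance) it lay at 131.2, against 25.9 and 67.1 for the other NO samples and -49.1 to -26.0 for GS and DM. Results on NO are therefore also given without it where a call was lost or gained or the size moved most. The fibroblast (feeder) marker sum was 318 to 496 normalised counts in the GS samples, 412 to 447 in DM and 381 to 406 in NO. Single markers went different ways. *Thy1* was at 59 to 60 in GS, 168 to 211 in DM and 158 to 176 in NO. *Col1a1* was at 13 to 21, 13 to 20 and 39 to 88, and *Pdgfrb* at 219 to 378, 163 to 216 and 110 to 175.

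To show the DNA next to these genes, the 250 bases before the start of transcription were read for 6 of the 10 members from the RefSeq promoter table (build GRCm38.p6). A window counted as holding a GC element if it had GGCGCC, a palindrome known as a binding site of BMP-activated Smads, and as holding a Smad box if it had CAGAC or its reverse complement GTCTG. Among 32851 windows of this length, 9.6% held the GC element and 42.2% a Smad box. The windows of *Id2*, *Id4* and *Smad9* each held 1 GC element, beginning 231, 148 and 51 bases before the start. The window of *Id3* held 2 Smad boxes, beginning 167 and 68 bases before the start. The windows of *Bmp4* and *Smad6* held neither, and no window held both. The windows of *Id2* and *Id3* overlapped exons of longer transcripts of the same genes and are not printed. The 3 windows below are examples with and without the element: *Bmp4*, at chr14:46390670-46390919 on the minus strand, *Id4*, at chr13:48260866-48261115 on the plus strand, and *Smad9*, at chr3:54755332-54755581 on the plus strand. They run 5′ to 3′ in lower case, with the GC element in capitals.
Bmp4: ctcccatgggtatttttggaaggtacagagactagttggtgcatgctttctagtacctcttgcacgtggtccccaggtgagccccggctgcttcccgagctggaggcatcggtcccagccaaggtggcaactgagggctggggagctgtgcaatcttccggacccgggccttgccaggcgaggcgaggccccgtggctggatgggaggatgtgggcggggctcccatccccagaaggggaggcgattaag
Id4: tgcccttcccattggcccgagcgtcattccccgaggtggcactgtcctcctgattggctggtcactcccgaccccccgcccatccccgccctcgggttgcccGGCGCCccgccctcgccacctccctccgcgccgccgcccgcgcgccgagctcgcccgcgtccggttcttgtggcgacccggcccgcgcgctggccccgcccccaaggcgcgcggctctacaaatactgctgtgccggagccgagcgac
Smad9: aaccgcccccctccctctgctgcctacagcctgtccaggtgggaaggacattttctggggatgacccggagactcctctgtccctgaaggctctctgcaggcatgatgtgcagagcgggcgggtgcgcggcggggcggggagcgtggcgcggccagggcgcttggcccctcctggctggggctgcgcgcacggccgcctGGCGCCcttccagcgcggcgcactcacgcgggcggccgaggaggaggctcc
*Bmp4* had no such letters in its window and rose 2.14-fold from GS to DM. *Smad9* had the element 51 bases before its start and lay lower in DM than in GS, a difference that missed the threshold given below (limma, adjusted p = 0.0602). *Id4*, with the element at 148 bases, lay at 65 to 89 normalised counts in both media. *Id2*, which also had the element, rose 4.94-fold from GS to NO, and *Id3* and *Smad6*, which lacked it, passed in no comparison. A link between the letters and the changes was not tested. A match is a description of the letters and does not show that a protein was bound there.

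**Figure D1:**
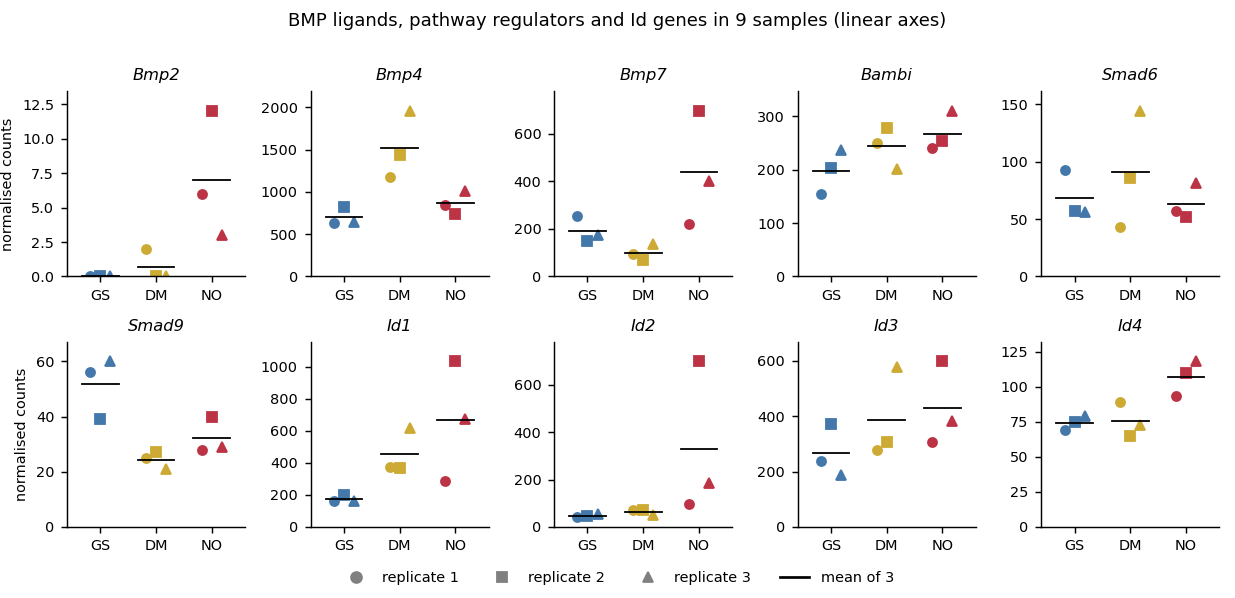
Normalised counts (linear y axes, each from 0) of the 10 genes in each of the 9 samples by medium. Points are samples, with a circle, square or triangle for replicate 1, 2 or 3, and bars are means of 3. *Bmp4* is highest in DM, *Bmp7* lowest in DM, and *Id2* in NO ranges from 97 to 699.

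*Bmp4*, a ligand made by mESC themselves, lies on chromosome 14 (46383520 to 46390669, minus strand, GRCm38). It was measured at 633, 827 and 640 normalised counts in the GS samples, at 1177, 1439 and 1956 in DM, and at 850, 737 and 1007 in NO. Every DM sample lay above every sample of the other media. *Bmp4* rose 2.14-fold from GS to DM (log2 fold change 1.10, SE 0.20, adjusted p = 0.00633, limma with Benjamini-Hochberg adjustment over all 18156 genes tested). A gene was called when its adjusted p was under 0.05 and its change at least 2-fold on the log2(normalised count + 1) scale. Without DM replicate 3 the rise was 0.90 on the log2 scale (adjusted p = 0.0214), under the 2-fold limit. In NO, *Bmp4* fell 1.74-fold from its DM level (log2 fold change -0.80, SE 0.20, adjusted p = 0.0237), which did not reach a 2-fold change. That adjusted p was 0.0705 without NO replicate 2 and 0.0703 without DM replicate 3. Between NO and GS the difference was 0.30 with a 95% interval of -0.13 to 0.74 (adjusted p = 0.303). In the annotation 4.0% of the exon bases of *Bmp4* are shared with an antisense gene, and strand use in the counting is not given in the sources used here.

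*Bmp7*, a ligand of another BMP subgroup, lies on chromosome 2 (172868012 to 172940321, minus strand). It took the opposite course, at 253, 150 and 173 normalised counts in the GS samples, 93, 71 and 135 in DM, and 221, 696 and 402 in NO. The DM values lay below all others, while NO and GS overlapped. *Bmp7* rose 4.08-fold from DM to NO (log2 fold change 2.03, SE 0.38, adjusted p = 0.00757). Without NO replicate 2 the difference was 1.62 (adjusted p = 0.0139), and it was called under every alternative tried. The 1.94-fold lower level in DM than in GS did not pass (log2 fold change -0.95, 95% interval -1.78 to -0.13, adjusted p = 0.179). The NO level was 2.11-fold above GS without passing (1.07, interval 0.25 to 1.90, adjusted p = 0.0655), and 0.67 (adjusted p = 0.212) without NO replicate 2.

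*Bmp2*, the closest relative of *Bmp4* among the ligands, lies on chromosome 2 (133552159 to 133562885, plus strand). It was listed at 0 in all 3 GS samples, at 2, 0 and 0 in DM, and at 6, 12 and 3 normalised counts in NO. All NO samples were listed above every other sample, at levels of a few reads. In NO replicate 3, listed at 3, 1 read was worth 1.31 normalised counts, and in DM replicate 1, listed at 2, it was 0.86. These samples are therefore not told apart in reads. In a limma fit over all 29069 genes with no minimum mean, *Bmp2* had an adjusted p of 0.00904 for NO against GS and 0.0331 for NO against DM. These p-values carry no weight, since *Bmp2* was listed almost only in NO. No fold is given because the GS samples were listed at 0.

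Per kb of annotated exon, *Bmp4* was the highest of the 3 ligands in every medium. The length is that of all annotated exons of a gene merged, whether or not used in these cells. Levels of different genes can therefore be set side by side only roughly. In GS it stood at 311 ± 49.0 normalised counts per kb (SD, n = 3) against 47.8 ± 13.5 for *Bmp7*. In DM the levels were 678 ± 176 and 24.8 ± 8.09, and in NO 385 ± 60.3 and 109 ± 59.7. *Bmp2* reached 1.97 ± 1.29 per kb in NO. *Bmp4* and *Bmp7* thus lay farthest apart in DM.

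*Id1*, a single-exon gene by the merged annotation, lies on chromosome 2 (152736251 to 152737410, plus strand). It was measured at 162, 198 and 163 normalised counts in the GS samples, at 374, 367 and 619 in DM, and at 287, 1033 and 676 in NO. All GS samples lay below all others, and DM and NO overlapped. *Id1* rose 3.36-fold from GS to NO (log2 fold change 1.75, SE 0.38, adjusted p = 0.00835). Without NO replicate 2 it was 1.34 (adjusted p = 0.0195), and the call was kept under every alternative tried except a minimum log2 fold change of 2. Its 2.52-fold higher level in DM than in GS missed the threshold (1.34, SE 0.38, adjusted p = 0.0593) but was called without NO replicate 2 (adjusted p = 0.0132) and without NO replicate 1, which enter through the shared estimate of spread. This difference stayed uncalled under 13 of 19 alternatives, and without DM replicate 3 it was 1.09 (adjusted p = 0.204). Between NO and DM the difference was 0.41 (95% interval -0.41 to 1.24, adjusted p = 0.491), and 0.00 without NO replicate 2 (adjusted p = 0.998).

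*Id2* lies on chromosome 12 (25093799 to 25097140, minus strand). It was at 42, 45 and 53 normalised counts in the GS samples, 70, 71 and 51 in DM, and 97, 699 and 187 in NO. Every NO sample lay above all others, with NO replicate 2 far above the other NO samples, and GS and DM overlapped. *Id2* rose 4.94-fold from GS to NO (log2 fold change 2.31, SE 0.53, adjusted p = 0.0117). Without NO replicate 2 this was 1.52 (adjusted p = 0.00768), and the call was kept under every alternative tried. From DM to NO it rose 3.65-fold (1.87, SE 0.53, adjusted p = 0.0394). This call was lost under 12 of 19 alternatives, among them leaving out any sample other than NO replicate 1. Without NO replicate 2 the difference from DM was 1.08 (adjusted p = 0.0573), and across the alternatives the adjusted p ran from 0.00249 to 0.104. Between DM and GS the difference was 0.44 (95% interval -0.73 to 1.61, adjusted p = 0.711).

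Some markers of other cell types were also highest in NO replicate 2 among the NO samples, 5 of 8 for primitive endoderm, 4 of 8 for trophoblast, 3 of 8 for primitive streak and mesoderm and 5 of 8 for fibroblasts. For the mESC markers it was 1 of 10. The share over all genes was not counted, so these counts are not read as a trait of any cell type. *Gata6*, a primitive endoderm factor, was at 20, 234 and 90 normalised counts in the 3 NO samples and at 5 to 15 in GS. *Pdgfra* was at 30, 170 and 64 in NO, and *Hand1*, a trophoblast and mesoderm factor, at 11, 111 and 33, whereas *Lama1*, another primitive endoderm marker, was lowest in NO replicate 2 (4372, 2874 and 3924). The order of the 3 NO samples was the same for *Gata6*, *Pdgfra* and *Hand1* as for *Id1*, *Id2* and *Bmp7*. It was also their order on the first principal component (25.9, 67.1 and 131.2 for NO replicates 1, 3 and 2), so it is not particular to these markers. *Sox7* (12, 9 and 1 in NO replicates 1, 2 and 3) and *Dab2* (48, 47 and 46), other primitive endoderm markers, did not follow it. Over the 8 primitive endoderm markers the sum lay at 7929 to 8667 in GS, at 3950 to 4988 in DM and 5713 to 6694 in NO, over the 8 trophoblast markers 2473 to 2625, 2076 to 2169 and 2214 to 2559, and over the 8 primitive streak and mesoderm markers 475 to 576, 222 to 266 and 235 to 339. Each sum follows its most abundant genes. Most of the primitive endoderm sum in GS was *Lama1*, at 7405 to 8149. In NO against GS *Lama1* was lower (log2 fold change -1.09), while 6 of the 7 primitive endoderm markers tested had a positive log2 fold change. Of the 7 primitive endoderm markers tested, 1 was called higher in NO than in DM (6.78% of all genes), and 2 higher and 1 lower in NO than in GS (10.1% and 1.64%). Of the 7 trophoblast markers tested, 1 was called higher in NO than in DM, and 2 higher and 2 lower in NO than in GS. *Eomes*, called lower in NO than in GS, is listed both here and with the primitive streak and mesoderm markers. It enters the counts and sums of both lists. Of the 7 primitive streak and mesoderm markers tested, 2 were called higher in NO than in DM, and 2 higher and 2 lower in NO than in GS. Among these, *Mesp1* (means 0.3 in GS, 3.3 in DM and 12.0 in NO) passed the minimum mean of 5 through its NO samples. The trophoblast marker *Cdx2* (58.3, 1.3 and 7.3) passed it through its GS samples. The calls of *Mesp1* and *Cdx2* against GS therefore carry no weight. Of the 5 fibroblast markers tested, 1 was called higher in DM than in GS, 1 in NO than in DM and 2 in NO than in GS. The shares of all genes called higher were 2.94%, 6.78% and 10.1%, and 0 fibroblast markers were called lower. None of the 8 primitive endoderm markers was at 0 in all samples of any medium. The part of these markers in the *Id* and *Bmp7* results was not tested, and in bulk RNA more cells of a type and more RNA per cell cannot be told apart.

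*Id3* lies on chromosome 4 (136143497 to 136145755, plus strand), and was at 238, 372 and 187 normalised counts in the GS samples, 276, 306 and 578 in DM, and 306, 598 and 383 in NO. The 3 media overlapped. No comparison passed, with differences of 0.52 for DM against GS (95% interval -0.21 to 1.25, adjusted p = 0.434), 0.17 for NO against DM (-0.56 to 0.91, adjusted p = 0.766) and 0.69 for NO against GS (-0.04 to 1.42, adjusted p = 0.166). The latter differences were -0.09 (adjusted p = 0.907) and 0.42 (adjusted p = 0.445) without NO replicate 2. *Id4* lies on chromosome 13 (48261228 to 48266026, plus strand), and was at 69, 75 and 79 in GS, 89, 65 and 73 in DM, and 93, 110 and 118 in NO. The NO values of *Id4* lay above all others. The differences were small, at 0.50 against DM (adjusted p = 0.139) and 0.51 against GS (adjusted p = 0.114), and DM and GS differed by 0.02 (95% interval -0.46 to 0.49). In the annotation 6.6% of the exon bases of *Id4* are shared with antisense genes.

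**Figure D2:**
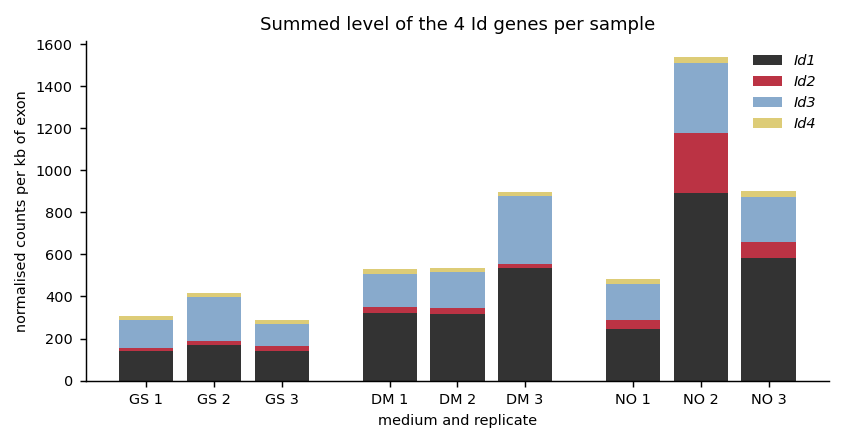
Summed level of the 4 *Id* genes in each sample, in normalised counts per kb of exon (linear y axis from 0), with 1 stacked bar per sample and 1 colour per gene. *Id1* takes the larger part in DM and NO, and the *Id2* part is widest in NO replicate 2 (18.6% of the sum).

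Per kb of exon the 4 *Id* genes together stood at 308, 416 and 287 normalised counts in the GS samples, 528, 533 and 896 in DM, and 482, 1540 and 904 in NO. The GS sums lay below all others. The means were 337 ± 69.4, 653 ± 211 and 975 ± 532 (SD, n = 3 each). *Id1* made up 45.1% ± 4.0 of the sum in GS, 59.9% ± 0.9 in DM and 57.9% ± 6.6 in NO, and *Id3* 43.2% ± 6.8, 32.4% ± 3.4 and 26.9% ± 7.4. In GS, *Id1* and *Id3* thus held like parts, whose spreads overlapped. The part of *Id2* came to 5.9% ± 1.6 in GS, 4.4% ± 1.8 in DM and 11.8% ± 5.9 in NO, where single samples had 8.3%, 18.6% and 8.5%. *Id4* held 5.9% ± 1.2, 3.2% ± 1.2 and 3.4% ± 1.6. These parts describe the samples and were not tested. They rest on merged exon lengths of 1160 bases for *Id1*, 2438 for *Id2*, 1791 for *Id3* and 3849 for *Id4*, whether or not all these exons are used.

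*Smad9* encodes one of the receptor-regulated Smads of the BMP branch, and is itself a BMP target. It lies on chromosome 3 (54755582 to 54801257, plus strand). It was at 56, 39 and 60 normalised counts in the GS samples, 25, 27 and 21 in DM, and 28, 40 and 29 in NO. The DM values lay below all others, and NO and GS overlapped. Its 2.06-fold lower level in DM than in GS missed the threshold (log2 fold change -1.04, SE 0.29, adjusted p = 0.0602) and was called without NO replicate 2 (adjusted p = 0.0334). This difference stayed uncalled under 13 of 18 alternatives, and without DM replicate 3 it was -0.94 (adjusted p = 0.17). The difference of NO from DM was 0.39 (95% interval -0.26 to 1.03, adjusted p = 0.402) and that of NO from GS -0.65 (-1.30 to -0.01, adjusted p = 0.139).

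*Smad6* lies on chromosome 9 (63953076 to 64022059, minus strand), and was at 93, 57 and 56 normalised counts in the GS samples, 43, 86 and 144 in DM, and 57, 52 and 81 in NO. The spread within DM covered the values of GS and NO. Its differences were 0.28 for DM against GS (95% interval -0.59 to 1.15), -0.38 for NO against DM (-1.25 to 0.49) and -0.10 for NO against GS (-0.97 to 0.77). *Bambi*, on chromosome 18, was at 154, 203 and 237 in GS, 251, 279 and 201 in DM, and 240, 253 and 310 in NO. NO lay above GS in every sample, by 0.45 (95% interval -0.01 to 0.90, adjusted p = 0.15), and DM overlapped with both. Neither gene passed in any comparison.

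**Figure D3:**
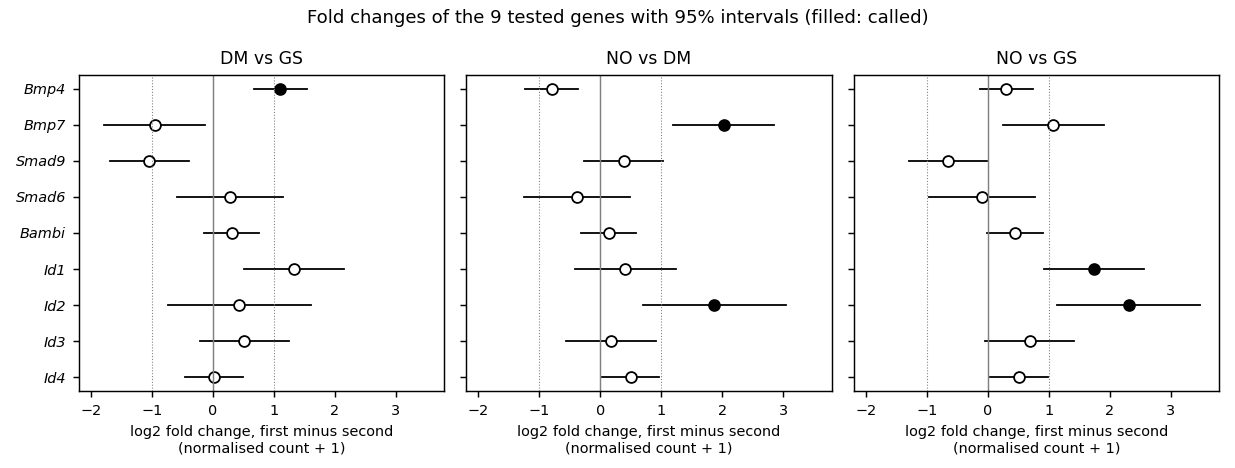
Log2 fold changes of the 9 tested genes, on the log2(normalised count + 1) scale (x axis, first medium minus second), with 95% intervals as bars, in 3 panels for DM against GS, NO against DM and NO against GS. Filled points were called, dotted lines mark a 2-fold change, and the filled points are *Bmp4* in the first panel, *Bmp7* and *Id2* in the second and *Id1* and *Id2* in the third.

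Over the 9 tested members, DM against GS gave 1 higher and 0 lower, where 2.94% of all genes were called higher and 1.27% lower. By adjusted p alone it was 1 member, against 6.69% of all genes, and in 4 members the samples of the media did not overlap, against 29.6% of all genes. NO against DM gave 2 higher and 0 lower (6.78% and 1.77% of all genes), 3 by adjusted p alone (14.2%) and 5 without overlap (33.4%). NO against GS gave 2 higher and 0 lower (10.1% and 1.64%), 2 by adjusted p alone (20%) and 4 without overlap (39.1%). At an unadjusted p under 0.05 there were 4, 4 and 5 members, in that order, against 3611, 5675 and 6290 of all 18156 genes. The median log2 fold change of the members was 0.31, 0.39 and 0.51, against 0.00, 0.00 and -0.02 over all genes tested. NO against DM and DM against GS share the DM samples, and NO against GS shares its samples with both. In the moderated F test over the 3 media, 4 of 9 members had an adjusted p under 0.05, against 23.3% of all genes. They were *Bmp4* (0.00616), *Bmp7* (0.00863), *Id1* (0.0145) and *Id2* (0.019), and *Smad9* followed at 0.0558.

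The rest of the pathway was described from lists of 77 genes, of which 53 were tested. DM against GS gave 2 higher and 4 lower, NO against DM 6 higher and 2 lower, and NO against GS 7 higher and 3 lower. Over all genes 2.94% and 1.27%, 6.78% and 1.77%, and 10.1% and 1.64% were called higher and lower in these comparisons, and the shares of genes called in either direction were 4.2%, 8.55% and 11.7%, against 11.3%, 15.1% and 18.9% of the 53. The medians were 0.06, 0.20 and 0.11, against 0.00, 0.00 and -0.02 over all genes. The counts by list that follow are small and are read against the same shares. Those at an unadjusted p under 0.05 are read against 3611 (DM against GS), 5675 (NO against DM) and 6290 (NO against GS) of all 18156 genes. The counts moved with single samples, and leaving out 1 sample gave 6 to 8, 3 to 12 and 5 to 12 called genes.

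**Figure D4:**
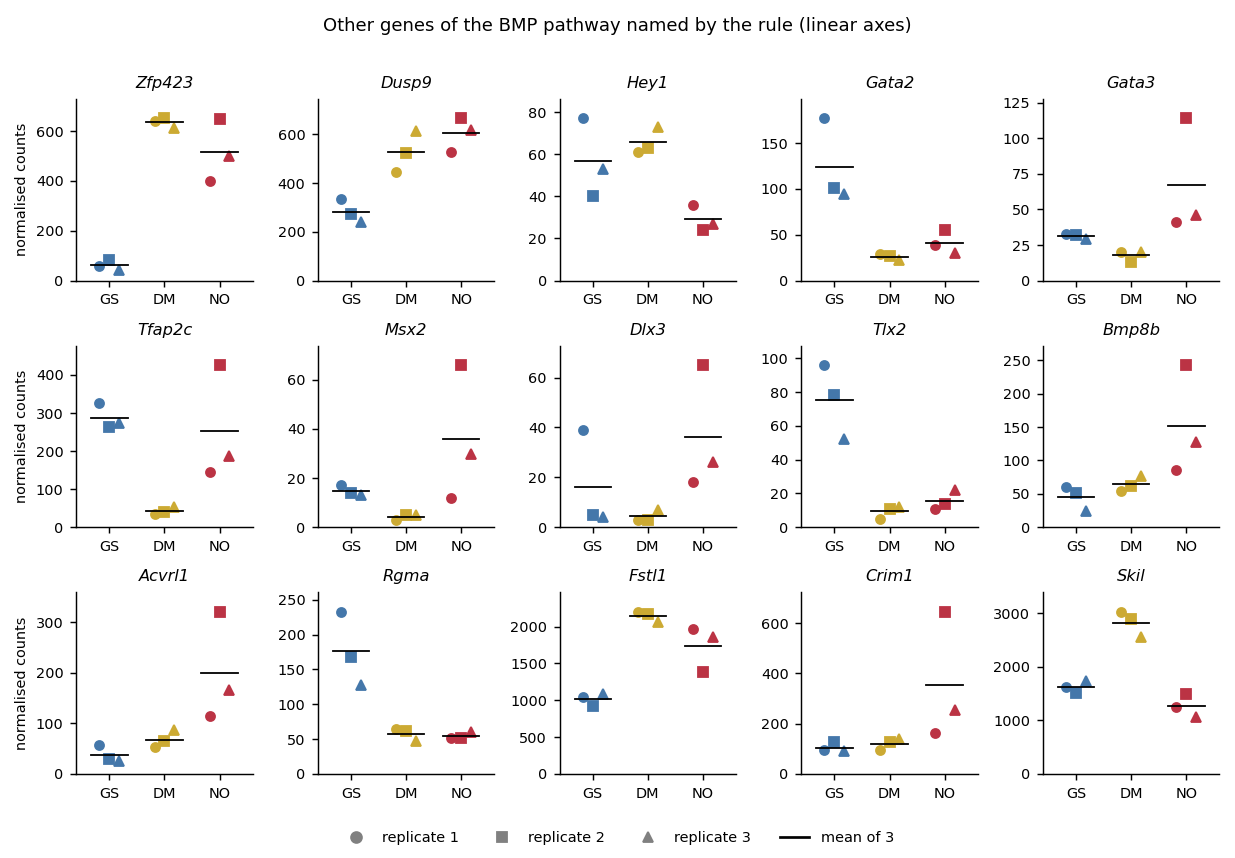
Normalised counts (linear y axes, each from 0) of 15 other genes of the BMP pathway in the 9 samples by medium. Points are samples (circle, square and triangle for replicates 1, 2 and 3) and bars are means of 3. *Zfp423* is lowest in GS, *Gata2*, *Tlx2* and *Rgma* are highest in GS, and *Skil* is highest in DM.

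Among other ligands, 5 of 12 were tested, and 3 were called higher in NO than in GS while none was called in the other comparisons (0 at an unadjusted p under 0.05 in DM against GS and 1 in NO against DM). *Bmp8b*, a ligand of the germ line and early embryo, was at 60, 52 and 24 normalised counts in the GS samples, 55, 62 and 77 in DM, and 85, 243 and 128 in NO. All NO samples lay above the others. It rose 3.22-fold from GS to NO (log2 fold change 1.69, SE 0.41, adjusted p = 0.0144), and without GS replicate 3 the adjusted p was 0.0621. The rise was 1.28 (adjusted p = 0.0439) without NO replicate 2. The other 2 were *Bmp8a* (1.35, adjusted p = 0.034) and *Gdf7* (2.13, adjusted p = 0.0473), which fall outside the rule for named genes and are named because the count is small. Their calls were lost under 11 of 18 and 13 of 18 alternatives, and *Gdf7* did not exceed 15 normalised counts. *Bmp8a* and *Bmp8b* are close paralogs, and reads that fit both would have been left out of the counting. In the annotation 12.2% of the exon bases of *Bmp8b* are shared with antisense genes. Without NO replicate 2 the differences of *Bmp8a* and *Gdf7* were 1.00 (adjusted p = 0.115) and 1.79 (adjusted p = 0.149). *Gdf7*, with means of 1.7 in GS, 5.3 in DM and 9.7 in NO, passed the minimum mean of 5 through its NO samples, so its call carries no weight.

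Of the 10 receptors and co-receptors, 10 were tested, and 1, 1 and 2 were called in DM against GS, NO against DM and NO against GS. *Acvrl1*, the type I receptor known from endothelial cells, was at 57, 29 and 26 normalised counts in the GS samples, 53, 65 and 86 in DM, and 114, 321 and 166 in NO. It rose 5.09-fold from GS to NO (2.35, SE 0.40, adjusted p = 0.00252), and 1.94 (adjusted p = 0.00481) without NO replicate 2. From DM to NO it rose by 1.44 (SE 0.40, adjusted p = 0.0344), a call lost under 10 of 19 alternatives, including without NO replicate 2 (1.03, adjusted p = 0.113). *Rgma*, a BMP co-receptor, was at 233, 168 and 128 in GS, 64, 62 and 47 in DM, and 51, 51 and 60 in NO. It fell 2.96-fold from GS to DM (-1.57, SE 0.26, adjusted p = 0.0039) and 3.14-fold from GS to NO (-1.65, SE 0.26, adjusted p = 0.0017). The main BMP receptors of mESC passed in no comparison. *Bmpr1a*, a type I receptor, ranged over all 9 samples from 1413 to 2358 normalised counts, *Bmpr2*, the type II receptor, from 206 to 440 and *Acvr1*, another type I receptor, from 51 to 169. The widest of their differences was -0.64 (95% interval -1.33 to 0.04) for *Acvr1* in DM against GS.

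None of the 3 Smad transducers was called in any comparison. *Smad1* ranged from 343 to 626 normalised counts, *Smad5* from 578 to 1183 and *Smad4*, the common partner, from 1308 to 1639. At an unadjusted p under 0.05 there was 1 of 3 in NO against DM, *Smad5*, at 0.48 (SE 0.18, adjusted p = 0.0963), and 0 of 3 in the other comparisons.

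Among extracellular inhibitors, 8 of 17 were tested and 1 was called in each comparison. *Fstl1*, a secreted glycoprotein that can bind BMPs, was at 1044, 925 and 1085 normalised counts in the GS samples, 2203, 2169 and 2069 in DM, and 1965, 1384 and 1860 in NO. It rose 2.11-fold from GS to DM (1.08, SE 0.15, adjusted p = 0.00127). *Crim1*, a membrane protein that tethers BMPs, was at 96, 125 and 91 in GS, 96, 125 and 139 in DM, and 161, 645 and 256 in NO. It rose 2.88-fold from GS to NO (1.53, SE 0.40, adjusted p = 0.0205) and 2.5-fold from DM to NO (1.32, SE 0.40, adjusted p = 0.0473). Without NO replicate 2 these were 0.97 (adjusted p = 0.0296) and 0.77 (adjusted p = 0.103), so both calls were lost. The call against DM was lost under 13 of 19 alternatives, among them leaving out any sample other than NO replicate 1, and the call against GS was also lost without GS replicate 1 (adjusted p = 0.0654) and without GS replicate 3 (adjusted p = 0.0776). *Nog*, which encodes the antagonist noggin, stayed within 1 to 18 normalised counts.

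Among the 10 intracellular inhibitors, 10 were tested and 1 was called, in NO against DM. At an unadjusted p under 0.05 there were 3 in DM against GS and 4 in NO against GS. *Skil* encodes SnoN, a co-repressor of Smads known chiefly from the TGF-β branch. It was at 1628, 1518 and 1729 normalised counts in the GS samples, 3032, 2899 and 2553 in DM, and 1249, 1499 and 1059 in NO. The DM values lay above all others. It fell 2.24-fold from DM to NO (-1.17, SE 0.15, adjusted p = 0.00195), and by 1.29 (adjusted p = 0.000609) without NO replicate 2. *Smad7*, the inhibitory Smad of both branches, lay at 2680 to 3576 in all 9 samples and passed in no comparison.

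Of 16 further genes known to respond to BMP in some tissue, 13 were tested, with 1 higher and 3 lower in DM than in GS, 4 higher and 1 lower in NO than in DM, and 2 higher and 2 lower in NO than in GS. The list counts *Smad7* again. *Zfp423*, a zinc finger cofactor of BMP Smads, was at 58, 83 and 42 normalised counts in the GS samples, 641, 651 and 613 in DM, and 399, 649 and 500 in NO. It rose 10.6-fold from GS to DM (3.41, SE 0.25, adjusted p = 2.84e-05) and 8.49-fold from GS to NO (3.09, SE 0.25, adjusted p = 8.55e-05). *Dusp9*, a phosphatase of ERK, was at 337, 274 and 239 in GS, 446, 525 and 613 in DM, and 529, 666 and 620 in NO, a 2.14-fold rise from GS to NO (1.10, SE 0.18, adjusted p = 0.00207). Without GS replicate 3 that rise was 0.98 (adjusted p = 0.0125), under the 2-fold limit. Both genes were lowest in GS.

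*Gata2*, *Tlx2* and *Tfap2c*, which encode transcription factors, were high in GS. *Gata2* was at 177, 101 and 94 normalised counts in the GS samples, 29, 27 and 22 in DM, and 39, 55 and 30 in NO, and fell by 2.16 in DM (adjusted p = 0.00202) and by 1.54 in NO (adjusted p = 0.0071) on the log2 scale. *Tlx2* was at 96, 78 and 52 in GS, 5, 11 and 12 in DM, and 11, 14 and 22 in NO, and fell by 2.92 (adjusted p = 0.00157) and 2.21 (log2 fold change -2.21, adjusted p = 0.00443). Neither overlapped with GS in the serum media. *Tfap2c*, a factor of germ cells and trophoblast, was at 326, 262 and 275 in GS, 34, 41 and 52 in DM, and 144, 426 and 186 in NO. It fell 6.73-fold from GS to DM (-2.75, SE 0.34, adjusted p = 0.000694) and rose 5.30-fold from DM to NO (2.41, SE 0.34, adjusted p = 0.00286), and by 1.95 on the log2 scale (adjusted p = 0.00105) without NO replicate 2. NO replicate 2 lay above all GS samples and the other NO samples below them, with a difference of NO from GS of -0.80 (adjusted p = 0.0436) without it.

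*Gata3*, *Msx2* and *Dlx3*, further response genes, were higher in NO than in DM, each highest in NO replicate 2. Their GS samples lay at 29 to 33 normalised counts for *Gata3*, 13 to 17 for *Msx2* and 4 to 39 for *Dlx3*. *Gata3*, a factor of trophoblast and other lineages, was at 20, 13 and 20 normalised counts in DM and 41, 114 and 46 in NO (1.73, SE 0.39, adjusted p = 0.0159), and without DM replicate 2 its adjusted p was 0.0601. *Msx2*, a homeobox gene, was at 3, 5 and 5 in DM and 12, 66 and 30 in NO (2.52, SE 0.54, adjusted p = 0.0134), and was lost without DM replicate 1. *Dlx3*, another homeobox gene, was at 3, 3 and 7 in DM and 18, 65 and 26 in NO (2.68, SE 0.76, adjusted p = 0.0379). The *Dlx3* call was lost under 10 of 18 alternatives. Among them, its adjusted p was 0.0532 with the replicate number as a block and 0.134 without NO replicate 2. Without NO replicate 2 *Gata3* (1.28, adjusted p = 0.0364) and *Msx2* (1.94, adjusted p = 0.0373) were still called. *Hey1*, a repressor downstream of Notch and BMP, was at 61, 63 and 73 in DM and 36, 24 and 27 in NO and fell by 1.17 on the log2 scale (adjusted p = 0.0252), a call lost when any 1 of the DM samples or NO replicate 2 or 3 was left out (adjusted p = 0.0654 to 0.0734). In GS *Hey1* was at 40 to 77.

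The basic helix-loop-helix partners of Id proteins were called in no comparison (5 of 10 tested, with 1, 2 and 1 at an unadjusted p under 0.05 in DM against GS, NO against DM and NO against GS). *Tcf3*, which encodes the E proteins E12 and E47, was at 3560, 3406 and 3272 normalised counts in the GS samples, 3929, 3869 and 4635 in DM, and 2964, 2649 and 3144 in NO. The media did not overlap, with DM highest and NO lowest. It fell 1.42-fold from DM to NO (-0.50, SE 0.13, adjusted p = 0.0248), under the 2-fold limit. *Tcf12*, another E protein gene, lay at 709 to 862 in all samples.

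Genes whose pattern over the 9 samples was most like that of *Id1* were found among 12395 genes with a mean above 50 by Pearson correlation of log2(normalised count + 1). Among them were *Pwwp2b* (r = 0.993), *Dgkz* (0.982), *Lgals3* (0.982) and *Etnk2* (0.981). *Lgals3*, which encodes galectin-3, was at 245, 300 and 239 normalised counts in the GS samples, 699, 692 and 963 in DM, and 521, 1413 and 939 in NO, the same order of media and of NO samples as *Id1*. Among the members, r with *Id1* was 0.83 for *Id3*, 0.782 for *Id2*, 0.614 for *Id4*, 0.538 for *Bambi*, 0.46 for *Bmp4*, 0.42 for *Bmp7* and 0.139 for *Smad6*, while *Bmp2* and *Smad9* lay under the minimum mean of 50. For *Bmp4* the closest were *Fgf17* (0.966), *Nphs1* (0.962), *Utf1* (0.96), *Zkscan17* (0.958) and *Crmp1* (0.946), and *Bmp7* had r = -0.537 with it. *Utf1*, an mESC chromatin gene, was at 913, 1164 and 609 in GS, 3184, 3497 and 5464 in DM, and 1764, 783 and 1624 in NO. These correlations are descriptions over 9 samples that share 3 media, and NO replicate 2 weighs on them.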

How the data were processed

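Total RNA was depleted of ribosomal RNA and sequenced on an Ion Torrent Proton. Per the study's methods, the authors trimmed reads with Reaper, aligned them to GRCm38 with STAR (2.4.0a), counted them over exons with featureCounts (1.4.5-p1), leaving out reads of several genes or positions, and normalised with DESeq2. The deposited values are whole numbers, treated here as a score (normalised counts rounded by the authors), so no count model was used. FastQC 0.11.2 is named in the submitters' processing notes. Strand use in counting is not given in the sources used here.

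The fit used limma 3.58.1 (R 4.3.3) on log2(value + 1), holding all 9 samples, a mean for each of the 3 media and a mean-variance trend, over the 18156 genes with a mean above 5. Adjusted p-values are Benjamini-Hochberg over these, two-sided, and called genes also changed at least 2-fold. The scripts were tested on simulated data. Depth was estimated from the steps between low values, an estimate that can fail in simulation where 1 read is worth a simple fraction. Members, pathway lists and tests were chosen with earlier results of these data known. Genes were named by a rule: the members, called genes of the lists (at most 5 per comparison and direction, by adjusted p), 10 core pathway genes whatever their values, and the 5 genes most correlated with *Id1* and with *Bmp4*, leaving out clone and model names. One gene that the rule names is not reported here. Coordinates and exon lengths are from GENCODE M21 (GRCm38).

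Same-numbered samples deviated together from their media means in NO and DM (correlations 0.16, 0.17 and 0.30) but not in DM and GS (-0.18, 0.02 and -0.23) or NO and GS (-0.05, 0.05 and -0.11), so the numbers were taken to pair NO and DM samples. This pairing comes from the values, not from the labels. Samples of unlike number were not compared, and the main fit does not use the pairing. Alternatives varied the pseudocount, minimum mean, samples in the fit, replicate block, scaling, moderation, sample weights, fold limit and each sample in turn.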

Additional observations from a re-analysis of the deposited data

How the results depend on the processing

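No direction of a called member reversed under any alternative. Of 510 settings of the members' single differences, 483 kept their side of the threshold, 13 lost a call and 14 gained one. The number of members called in DM against GS (1) was 3 with only the 6 samples compared, 2 with equal totals, with quantile normalisation and without a trend, 3 with sample weights by medium (chosen after seeing the data), 0 at a minimum log2 fold change of 2, and 0 to 3 when 1 sample was left out. In NO against DM (2) it was 1 with only 6 samples, quantile normalisation, no trend or a minimum log2 fold change of 2, and 1 to 2 when 1 sample was left out. In NO against GS (2) it was 1 at a minimum log2 fold change of 2 and 2 to 3 when 1 sample was left out. Members differing over the 3 media (4) numbered 3 to 5 when 1 sample was left out.

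The pathway genes called in DM against GS (6) numbered 6 to 8 when 1 sample was left out. In NO against DM (8) there were 5 with no minimum mean, 4 at a minimum mean of 50, 5 with only 6 samples or no trend, 13 with no minimum fold change, 3 at a minimum log2 fold change of 2, and 3 to 12 when 1 sample was left out. In NO against GS (10) there were 16 with no minimum fold change, 4 at a minimum log2 fold change of 2, and 5 to 12 when 1 sample was left out. The causes were not tested. Over all genes, NO against DM gave 1552 calls and 912 with only 6 samples. Quantile normalisation moved the median of all genes in NO against GS to -0.11, and the share of calls that were higher from 86.0% to 67.5% there, from 79.3% to 65.1% in NO against DM and from 69.9% to 62.4% in DM against GS.

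With the replicate number as a block, 2 members were called in each of DM against GS, NO against DM and NO against GS, and 4 differed over the 3 media. The call of *Id1* in DM against GS was gained (adjusted p = 0.0424), though same-numbered DM and GS samples did not deviate together. The block gave 6, 8 and 9 called pathway genes. Of the 27 member differences, 26 kept their side of the threshold.

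Precision was limited by 3 samples per medium, by the spread among the NO samples, and by depth for *Bmp2*, *Gdf7* and *Nog*, which rest on few reads.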
